A study of Mus musculus with 169 samples.

Results

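The genes described here are the core of major histocompatibility complex (MHC) class I antigen presentation in the mouse: B2m, H2-D1, H2-K1, Tap1, Tap2, Tapbp and Nlrc5. They were chosen by name, as every probe of the Agilent arrays whose reference accession belongs to one of the 7 genes, out of 20145 genes with a symbol. They have 9 probes in 28 spots (2 probes each for H2-K1 and Nlrc5, 1 for each of the others), and all 9 probes passed the filter on dim signal. Microglia, the resident macrophages of the brain, came from wild-type (WT, Grn+/+) and knockout (KO, Grn-/-) mice, the latter lacking the progranulin gene Grn, whose protein is secreted and also works in lysosomes. All mice were on a C57B/6J background, and the cells of 4-month and 16-month animals were taken through Percoll gradients and sorted by FACS with antibodies to CD11b, CD45 and Ly6G. The younger age had 4 arrays of WT and 3 of KO cells, the older age 4 of each genotype, and 1 further microglia sample was left out by the submitters, per the series description. The comparisons ask how loss of progranulin and age change these genes in microglia.

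MHC class I molecules display peptides from inside the cell to CD8 T cells. Proteasomes cut the peptides, a transporter in the membrane of the endoplasmic reticulum brings them in, and a loading complex fits them into a heavy chain bound to a small invariant light chain before the complex travels to the surface. Interferons raise the transcription of nearly the whole pathway, and microglia are known to raise class I when activated.

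The promoter stretches shown are those of the 2 classical heavy chains and the light chain, which form the class I molecule itself. Each lies before a transcript start in the promoter table and is printed 5′ to 3′ on the gene's strand, from RefSeq on GRCm38.p6. The H2-K1 stretch lies within the annotated span of its gene, which begins further upstream. They lie at chr17:34000335-34000467 (minus strand) for H2-K1, chr17:35262914-35263045 (plus strand) for H2-D1 and chr2:122147540-122147638 (plus strand) for B2m. Capitals mark matches on either strand to an NF-kB type motif (GGGA, then 4 free bases, then CC), TTTCNNTT (the core of an interferon-stimulated element), TGACG (the core of a CREB/ATF type site) and CCAAT (the NF-Y box, ATTGG on the other strand).
H2-K1: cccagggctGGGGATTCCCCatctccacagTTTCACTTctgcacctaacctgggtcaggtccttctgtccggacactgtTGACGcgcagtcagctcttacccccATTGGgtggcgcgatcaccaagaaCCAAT
H2-D1: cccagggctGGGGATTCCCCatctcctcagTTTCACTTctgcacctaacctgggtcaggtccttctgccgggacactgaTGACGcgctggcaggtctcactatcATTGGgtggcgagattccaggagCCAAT
B2m: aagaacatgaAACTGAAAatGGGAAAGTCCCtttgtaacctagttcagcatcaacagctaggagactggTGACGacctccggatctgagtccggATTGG
The H2-K1 and H2-D1 stretches were identical at 117 of 133 aligned positions (88.0%). All 4 motifs were found in the 300-base window of each of these 3 genes, in the order NF-kB type, TTTCNNTT, TGACG and CCAAT in both heavy chains and with the first pair the other way round in B2m. The NF-kB type motif matched on both strands at overlapping positions. Among 32851 promoter windows of the same length, 20.7% held the NF-kB type motif, 23.9% TTTCNNTT, 20.8% TGACG and 37.4% CCAAT, and 94 windows (0.286%) held all 4. The Tap1 window held TGACG and CCAAT and the Tapbp window held CCAAT alone. A match describes the letters and is not evidence of binding.

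Every level is the log2 of the processed signal over the 75th percentile of its array, so a step of 1 is a doubling, and levels of different probes are not compared with each other. In the other groups the 75th percentile was 1010 to 1752, and in KO of 16 months it was 507 to 1037, with 3 of these 4 arrays below all others. WT arrays 1 and 2 at 16 months, and likewise arrays 3 and 4, differed by less than any other pair within a group (scaled median absolute deviation 0.0989 and 0.0721, against at least 0.348), so each pair was averaged and counted as 1 replicate, which left 2 WT replicates at that age. Grn itself separated the genotypes: its level was 6.13 to 6.32 in WT and -3.36 to -2.06 in KO at 4 months, and 4.61 to 5.46 in WT at 16 months, where all 4 KO arrays were not well above background (at least 1010-fold lower). Summed over 12 microglial markers, the signal in units of the 75th percentile was 1615 to 2070 (WT) and 1547 to 2427 (KO) at 4 months, 1153 to 1833 in WT at 16 months and 251 to 610 in KO at 16 months. The sum over 12 choroid plexus markers ran the other way, at 14.5 to 156 and 255 to 383 at 4 months, 476 to 889 in WT at 16 months and 1339 to 2563 in KO at 16 months. In KO at 16 months 10 of the 12 microglial markers fell by limma (2 with the 16-month arrays fitted alone), where 15% of all features were lower. Of the 12 choroid plexus markers 5 rose, where 19.3% of all features were higher. At 4 months none of either list passed, where 0.0251% of all features did. At that age all 12 choroid plexus markers had an unadjusted limma p under 0.05 (median difference 3.05), as had 0 microglial markers (0.07) and 1919 of 31920 features. The part of this cell make-up in the results below was not tested, and in bulk samples fewer cells of a type and less RNA per cell cannot be told apart. The labels do not say that samples of a group are separate animals, so p-values measure only the spread between these samples.

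At 16 months, 1 of the 7 genes passed the test between KO and WT: Tap2 fell (-1.01 on the log2 scale, not called with the replicate number as a block), while B2m and the heavy chains did not pass. Over all 31920 features, 34.3% passed in that comparison, 19.3% higher and 15% lower, so the share of class I genes called (1 of 7) did not exceed the background. The median difference of the 7 genes was -0.59, against 0.12 over all features, and 1 of the 7 lay above the latter value. At 4 months none of the 7 passed by limma (0 at an unadjusted p under 0.05), against a background of 0.0251%, 0.0157% higher and 0.0094% lower, with a median difference of 0.26 against 0.

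**Figure D1:**
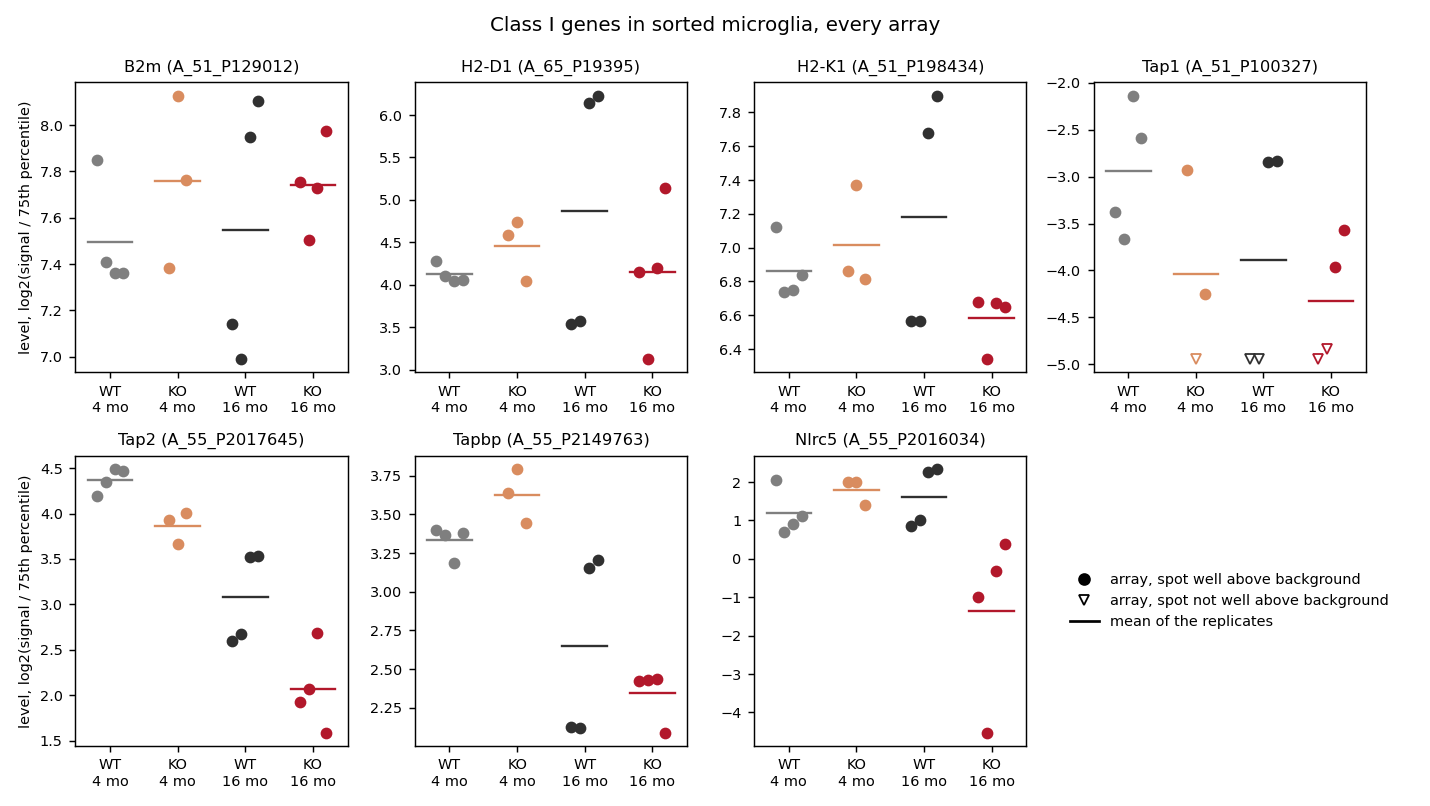
Level of each class I gene on every array, as log2 of the processed signal over the array's 75th percentile, by genotype and age in months (mo); each gene has its own axis, circles are arrays on which the probe was well above background, open triangles those on which it was not, and lines are means of replicates. In the third column of every panel the WT arrays of 16 months split into 2 tight pairs, with arrays 1 and 2 below arrays 3 and 4; Tap2 and Tapbp are lower at 16 than at 4 months in most arrays.

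B2m (chr2:122147687-122153082, probe A_51_P129012) encodes beta-2-microglobulin, the light chain of all class I molecules. Its level in the 4 WT arrays of 4 months was 7.85, 7.41, 7.36 and 7.36, and in the 3 KO arrays 7.38, 8.13 and 7.76. At 16 months the WT arrays read 7.14, 6.99, 7.95 and 8.10 and the KO arrays 7.75, 7.51, 7.73 and 7.97. The genotypes overlapped at both ages, and the 4 KO samples of 16 months lay between the 2 WT replicates (7.06 and 8.03). The KO minus WT difference was 0.26 (SE 0.26, limma adjusted p = 1) at 4 months and 0.19 (SE 0.30, limma adjusted p = 0.664) at 16 months. The summed microglial marker signal given above did not overlap between the genotypes at 16 months, whereas that of B2m did.

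The heavy chains H2-K1 and H2-D1 bind the peptide and give class I molecules their allelic identity. H2-K1 (chr17:33996012-34000619, probe A_51_P198434, spotted 10 times) read 7.12, 6.74, 6.75 and 6.84 in WT and 6.86, 7.37 and 6.82 in KO at 4 months. At 16 months it read 6.57, 6.57, 7.68 and 7.90 in WT and 6.68, 6.34, 6.67 and 6.65 in KO. WT arrays 3 and 4 stood above every KO array and arrays 1 and 2 lay within the KO range. The 8 to 10 repeat spots kept on an array had an SD of 0.0233 to 0.0994, which covers spot noise alone. The KO minus WT difference was 0.16 (SE 0.27, limma adjusted p = 1) at 4 months and -0.59 (SE 0.31, limma adjusted p = 0.163) at 16 months. With quantile normalization the latter was -1.16 and passed (limma adjusted p = 0.0303), and it also passed when only probes well above background everywhere set the 75th percentile (-0.90, 0.0317). The second H2-K1 probe (A_55_P2049647) gave -0.07 (SE 0.63, limma adjusted p = 1) at 16 months, and its WT pairs were further apart (2.71, 2.71, 5.11 and 5.20). Both H2-K1 probes thus split the WT arrays the same way but differed in the size of the genotype difference.

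H2-D1 (chr17:35263094-35267497, probe A_65_P19395) read 4.28, 4.11, 4.04 and 4.06 in WT and 4.58, 4.74 and 4.04 in KO at 4 months. At 16 months the levels were 3.54, 3.57, 6.15 and 6.23 in WT and 4.15, 3.13, 4.20 and 5.14 in KO. KO sample 2 lay below every WT array and the other 3 KO samples lay between the 2 WT pairs, so the genotypes overlapped. The KO minus WT difference was 0.33 (SE 0.58, limma adjusted p = 1) at 4 months and -0.72 (SE 0.66, limma adjusted p = 0.441) at 16 months. H2-D1 and H2-K1 are close relatives within a large gene family, and whether a probe reads one copy or several was not examined because the files hold no probe sequences.

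Tap1 and Tap2 form the transporter that moves peptides into the endoplasmic reticulum. Tap1 (chr17:34187556-34197225, probe A_51_P100327, 10 spots) was dim, well above background on 10 of 15 arrays. It read -3.37, -3.66, -2.14 and -2.59 in WT and -2.93, -4.94 and -4.25 in KO at 4 months, where -4.94 is the floor set for signals that low. At 16 months WT read -4.94, -4.94, -2.85 and -2.83 and KO -4.94, -4.84, -3.96 and -3.57. The genotypes overlapped at both ages, and WT arrays 1 and 2 of 16 months were at the floor while arrays 3 and 4 were not. The differences were -1.10 (SE 0.64, limma adjusted p = 0.948) at 4 months and -0.44 (SE 0.72, limma adjusted p = 0.693) at 16 months.

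Tap2 (chr17:34204479-34216321, probe A_55_P2017645) was bright enough to be measured on every array. It read 4.19, 4.34, 4.49 and 4.47 in WT and 3.93, 3.67 and 4.01 in KO at 4 months. At 16 months WT read 2.59, 2.67, 3.53 and 3.54 and KO 1.93, 2.07, 2.69 and 1.59. All 3 KO samples lay below all 4 WT samples at 4 months. At 16 months 3 of the 4 KO samples lay below both WT replicates and KO sample 3 lay just above the lower one (2.63). The difference was -0.50 (SE 0.28, limma adjusted p = 0.925) at 4 months and -1.01 (SE 0.31, limma adjusted p = 0.0296) at 16 months, a 2.02-fold lower level. The 16-month call was lost without KO sample 1 (-0.97, limma adjusted p = 0.0582) or KO sample 4 (-0.85, 0.0512). It was also lost when the 16-month arrays were fitted alone (adjusted p = 0.173) and with the replicate number as a block (0.0802). The difference kept its sign in each, as it did without WT arrays 3 and 4 (-0.56), which leaves 1 WT replicate.

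Tapbp (chr17:33919478-33929290, probe A_55_P2149763) encodes tapasin, which tethers empty class I molecules to the transporter. Levels at 4 months were 3.40, 3.37, 3.19 and 3.38 in WT and 3.64, 3.79 and 3.45 in KO, so that the KO samples lay above the WT samples by a small margin. At 16 months WT read 2.13, 2.12, 3.15 and 3.20 and KO 2.42, 2.43, 2.44 and 2.09. The KO samples were close together there and overlapped the lower WT replicate. The differences were 0.29 (SE 0.23, limma adjusted p = 1) at 4 months and -0.31 (SE 0.26, limma adjusted p = 0.405) at 16 months. Tap2 below and Tapbp above were the 2 of 7 genes whose genotypes did not overlap at 4 months, a separation seen in 11.6% of all features, 6.63% with KO below and 4.98% with KO above.

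Nlrc5 (chr8:94434335-94527272, probe A_55_P2016034) encodes a transactivator that is recruited to class I promoters. It read 2.05, 0.70, 0.91 and 1.11 in WT and 2.00, 2.01 and 1.40 in KO at 4 months. At 16 months WT read 0.84, 1.02, 2.25 and 2.33 and KO -0.98, -4.53, -0.32 and 0.39. All 4 KO samples lay below both WT replicates at 16 months, the 1 gene of the 7 for which the genotypes did not overlap there (42.1% of all features did not overlap, 17.9% with KO below WT). The difference of -2.97 had a wide error and did not pass, with KO sample 2 far below the others (SE 1.09, limma adjusted p = 0.0578). Without that sample it was -1.92 and passed (adjusted p = 0.0215), and it also passed with quantile normalization (0.0435), with normexp background correction (0.0135) and without KO sample 4 (0.0252). At 4 months the difference was 0.61 (SE 0.96, limma adjusted p = 1). The second Nlrc5 probe (A_66_P113043) was dim, at -4.49 to -3.63 in WT and -4.33 to -3.97 in KO at 4 months. At 16 months it read -3.86 to -3.72 in the WT replicates and -3.50, -1.88, -2.98 and -3.78 in KO, a difference of 0.76 (SE 0.45, limma adjusted p = 0.234) opposite in sign to the brighter probe. KO sample 2 was thus the lowest of all on one probe and the highest of all on the other, and the fall in Nlrc5 rests on the brighter probe alone.

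**Figure D2:**
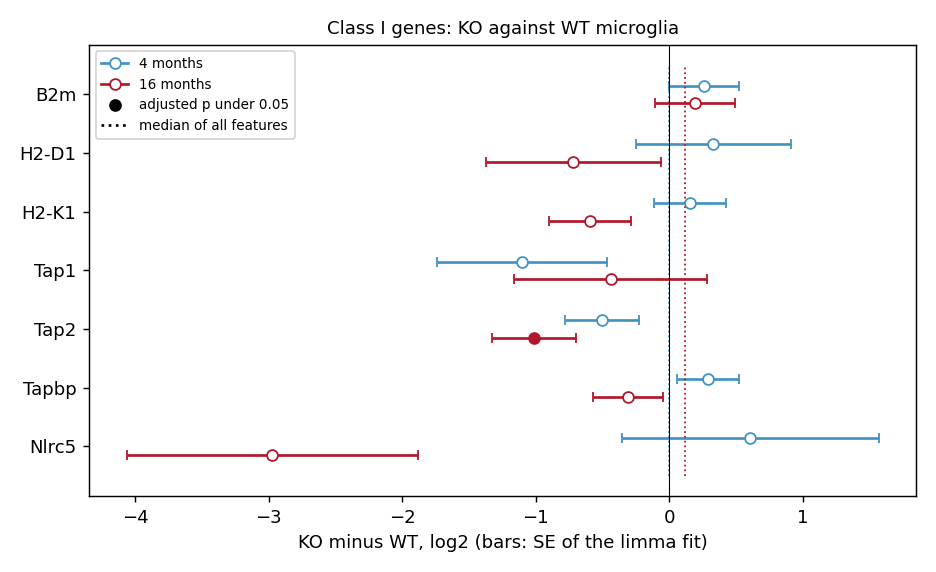
KO minus WT difference of each class I gene on the log2 scale at 4 months (blue) and 16 months (red), with the SE of the limma fit; filled points passed the adjusted p threshold and dotted lines are the medians of all features. Tap2 at 16 months (-1.01) is the 1 filled point, and Nlrc5 at 16 months (-2.97) has the widest bar among the 16-month values.

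The test of whether the KO effect differed between the ages passed for 0 of the 7 genes by limma, against 13.3% of all features, and 1 gene, Nlrc5, had an unadjusted p under 0.05. The difference between the KO effects (16 minus 4 months) was -3.58 for Nlrc5 (SE 1.46, limma adjusted p = 0.128), -1.05 for H2-D1 (adjusted p = 0.456), -0.75 for H2-K1 (0.251), -0.60 for Tapbp (0.278) and -0.51 for Tap2 (0.450). It was -0.07 for B2m (0.932) and 0.67 for Tap1 (0.682). An age difference in the genotype effect on these genes was therefore not shown.

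Between WT microglia of 16 and 4 months, 0 of the 7 genes passed by limma (2 at an unadjusted p under 0.05), against 3.52% of all features. Tap2 was lower at 16 months by the most (-1.29, SE 0.31, limma adjusted p = 0.0518), followed by Tap1 (-0.95, adjusted p = 0.567) and Tapbp (-0.68, SE 0.26, adjusted p = 0.199). Both 16-month replicates of Tap2 and of Tapbp lay below all 4 samples of 4 months, as did 22.4% of all features. Between the same groups 11 of 12 choroid plexus markers and 5 of 7 border macrophage markers rose by limma, and the summed signal of the latter was 2.51 to 3.61 at 4 months and 45.8 to 88.3 at 16 months. The part of these markers in the values was not tested. B2m (0.05), H2-K1 (0.32), Nlrc5 (0.42) and H2-D1 (0.75) had positive differences, with adjusted p from 0.636 to 0.983. With WT arrays 1 and 2 alone at 16 months, Tap2 was at -1.74 and Tapbp at -1.21. With arrays 3 and 4 alone they were at -0.84 and -0.15. Either pair alone leaves 1 replicate at that age. Each age was on a slide of its own, and age and slide cannot be told apart.

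The WT replicates decided the sign of most 16-month differences between the genotypes. Either pair alone leaves 1 WT replicate, so only effect sizes are listed. With WT arrays 3 and 4 alone, H2-D1 (-2.03), Tap2 (-1.46), H2-K1 (-1.20) and Tapbp (-0.83) were lower in KO. So were Nlrc5 (-3.65), Tap1 (-1.49) and B2m (-0.29). With WT arrays 1 and 2 alone, B2m (0.68), H2-D1 (0.60), Tap1 (0.61), Tapbp (0.22) and H2-K1 (0.02) turned to the other sign. Tap2 (-0.56) and Nlrc5 (-2.29) kept theirs. The pair with higher class I levels also had the higher microglial marker sum (1833 against 1153) and the lower choroid plexus sum (476 against 889) and neutrophil sum (63.9 against 273, 8 markers). The part of these markers in the split was not tested.

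**Figure D3:**
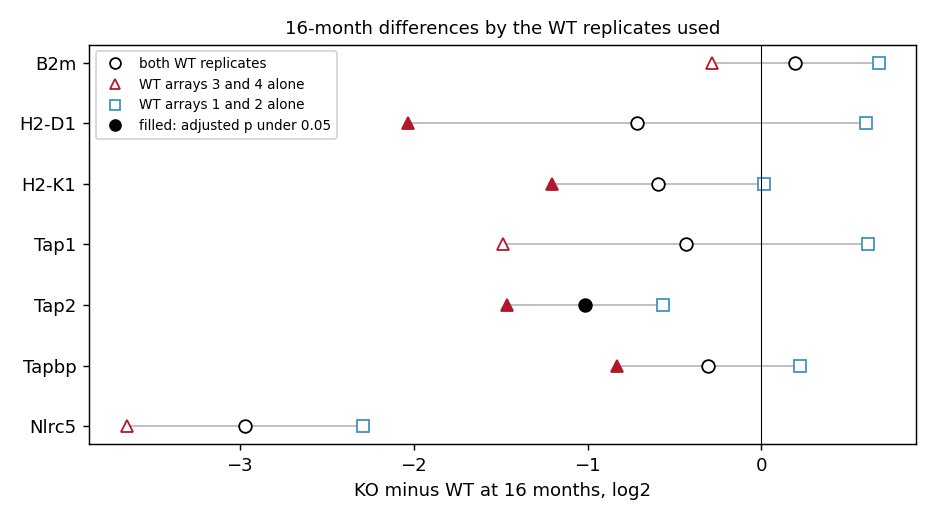
KO minus WT difference at 16 months on the log2 scale with both WT replicates (circles), with WT arrays 3 and 4 alone (triangles) and with WT arrays 1 and 2 alone (squares); filled symbols passed the adjusted p threshold. Triangles and squares rest on 1 WT replicate each. H2-D1 moves from -2.03 to 0.60, while Tap2 and Nlrc5 stay below 0 with either pair.

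Across the 13 replicates, H2-D1 and H2-K1 had a Pearson correlation of 0.811 and B2m correlated with them at 0.654 and 0.598. Tap2 and Tapbp correlated at 0.865, and B2m with Tap2 at -0.191. These values describe 13 points that share array scaling, genotype and age groups. The genes most like B2m over the same replicates were Depdc7 (0.853), Stx7, Il15, Rragc and Smurf2 (0.822), and those most like H2-K1 were 1700001P01Rik (0.929), Carmil3, Dera, Ccdc86 and Afdn (0.832). For Tap1 they were Vasp (0.899), Gbgt1, Lpcat1, Prdm2 and Tnfsf14 (0.866). For Nlrc5 they were Tgs1 and Ets1 (0.981 each), Tec, Abcb1b and Sla (0.970), out of 17791 genes.

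Among 18 measured genes for other class I heavy chains and class I-like molecules, 6 were lower and 2 higher in KO at 16 months, with a median difference of -0.48, where 15% of all features were lower and 19.3% higher. With the replicate number as a block 1 was higher. H2-M3, which presents formylated peptides, fell from a WT mean of 4.24 to 1.14 (-3.10, SE 0.45, limma adjusted p = 0.000704). Its range was 3.49 to 4.99 in WT and 0.40 to 1.73 in KO, and its KO effect differed between the ages (-3.26, limma adjusted p = 0.00792). H2-M5 also fell (-2.96, limma adjusted p = 0.00384). H2-M9 and H2-T3 were not well above background on any of the 4 KO arrays, at least 6.23-fold and 3.64-fold below WT (limma adjusted p = 0.0106 and 0.0122). Without WT arrays 1 and 2, which leaves 1 WT replicate, their differences shrank to -1.12 and -0.90. H2-T3 missed with normexp (0.109). Mr1, which presents vitamin B metabolites to MAIT cells, rose by 1.78 (SE 0.35, limma adjusted p = 0.00349). Fcgrt, the heavy chain of the neonatal Fc receptor, rose by 1.31 (adjusted p = 0.0248), but did not pass with the block (0.0596). Without WT arrays 1 and 2 the Fcgrt difference was only 0.46. H2-T23 (-0.45, adjusted p = 0.594) and H2-Q7 (-0.16, 0.894), named after their values were seen, were among the 10 that did not pass.

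Of 17 genes for peptide supply and folding, 3 were lower and 1 was higher in KO at 16 months, with a median of -0.08. Of all features 15% were lower and 19.3% higher, so the lower count was near the background and the higher count below it. Psmb9 and Psmb8, catalytic subunits of the immunoproteasome, fell, with differences of -1.81 (SE 0.57, limma adjusted p = 0.0326) and -1.21 (SE 0.39, adjusted p = 0.0360). Psmb9 ranged from 2.57 to 3.92 in the WT replicates and from -0.02 to 2.42 in KO, and Psmb8 from 3.67 to 4.87 and from 2.52 to 3.63. Without WT arrays 3 and 4, which leaves 1 WT replicate, the differences of Psmb9 and Psmb8 were -1.13 and -0.61. Neither passed without KO sample 1 (limma adjusted p = 0.0564 and 0.0744). Psmb8 was also lost without KO sample 2 (0.0581) or sample 3 (0.0572). Lnpep, an aminopeptidase linked to cross-presentation, was -0.14 and 0.22 in the WT replicates and was well above background on 2 of 4 KO arrays, 2 KO samples being at the floor (-4.94) and the others at -4.82 and -1.82. It passed (-4.17, limma adjusted p = 0.00313), but the size of the difference rests on the floor. Pdia3, the thiol oxidoreductase of the loading complex, rose by 1.37 (SE 0.23, adjusted p = 0.00153), with replicates at 5.32 and 5.88 in WT and at 6.88 to 7.13 in KO, but did not pass with quantile normalization (0.62, 0.158). With quantile normalization 7 were lower and 0 higher, but the share of all features in that setting is not given here. The KO effect differed between the ages for 1 gene each way, against 13.3% of all features. These were Lnpep (-4.26, limma adjusted p = 0.0270) and Pdia3 (1.20, 0.0289).

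Among 19 regulators of class I transcription, 8 were lower and 3 higher in KO at 16 months, with a median of -1.13, where 15% of all features were lower and 19.3% higher, so the higher count did not exceed the background. Irf1, an interferon-induced activator of class I promoters, fell from a WT mean of 5.29 to 2.07 (-3.22, SE 0.38, limma adjusted p = 0.000272). Its WT replicates read 4.78 and 5.80 and its KO samples 1.24, 2.18, 2.23 and 2.63, far apart, whereas at 4 months WT averaged 5.69 and KO 5.68. Ifngr1, a chain of the interferon-gamma receptor, fell too (-3.12, adjusted p = 0.000524), as did Irf8, a myeloid interferon regulatory factor (-2.72, 0.00200), and Nfkb1, an NF-kB subunit (-2.33, 0.00435). Without WT arrays 3 and 4, which leaves 1 WT replicate, the difference in Nfkb1 was -1.64. The KO effect differed between the ages for 5 of the 19 with a negative and 1 with a positive value, against 13.3% of all features. These were Irf1 (-3.22, limma adjusted p = 0.00457), Ifngr1 (-3.18, 0.00714), Irf8 (-2.95, 0.0154), Nfkb1 (-2.81, 0.0184), Nfya (-2.32, 0.0313) and Rfxap (3.06, 0.0314). Rfxap, a subunit of the RFX complex, rose by 3.27 (SE 0.60, limma adjusted p = 0.00246). Nfyb, an NF-Y subunit, rose by 1.38 (0.0340) and Ifnar2, a chain of the type I interferon receptor, by 0.67 (0.0348). The partners of these last genes, named after their values were seen, did not rise with them. At 16 months Nfya averaged 1.49 in WT and -0.33 in KO, Nfyc 3.39 and 3.41, and Ifnar1 2.15 and 0.81. The calls for Nfyb and Ifnar2 were lost with the replicate number as a block (limma adjusted p = 0.114 and 0.0862) and in further settings. Leaving out 1 replicate, their differences ran from 1.03 to 1.69 and from 0.56 to 0.80. With WT arrays 3 and 4 alone the difference was -3.73 for Irf1, -3.60 for Ifngr1, -3.60 for Irf8 and 4.44 for Rfxap. With WT arrays 1 and 2 alone it was -2.71, -2.64, -1.84 and 2.10 in the same order.

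Of 7 measured class I receptors and genes of the CD8 T cell side, 3 were lower in KO at 16 months and none higher, with a median of -0.79, where 15% of all features were lower and 19.3% higher. Klrd1, the CD94 chain of an NK receptor, fell from a WT mean of 1.12 to -4.30 (-5.42, SE 0.90, limma adjusted p = 0.00144), with 1 of 4 KO arrays well above background and the other 3 at the floor, on which the size of the difference rests. Pilra, an inhibitory myeloid receptor, fell (-4.31, limma adjusted p = 0.00279), with 1 of 4 KO samples at the floor. Pirb, an inhibitory receptor for class I on myeloid cells, fell (-1.78, limma adjusted p = 0.0113). Its difference was -1.09 without WT arrays 3 and 4, which leaves 1 WT replicate. Summed over 6 T and NK cell markers, the signal at 16 months was 0.40 to 0.56 in WT and 0.59 to 1.03 in KO. At 4 months it was 0.43 to 0.58 in WT and 0.51 to 0.75 in KO. Of the 4 markers tested, Nkg7 rose at 16 months (0.93, limma adjusted p = 0.0239). Cd3e did not pass (0.96, 0.0630), and none was called lower. Cd8a, Cd3g and Klrb1c were each well above background on 0 of 8 arrays at 16 months, and Cd3d on 1 of 4 WT and 0 of 4 KO arrays. Nkg7 and Cd3e were so on every array of that age. The highest sum (1.03) was that of KO sample 2, whose array had the lowest 75th percentile (507). The part of dim signal and scaling in the sums was not tested. At 4 months none of the genes of these 4 lists passed in either direction. An unadjusted limma p under 0.05 was reached at that age by 2, 0, 0 and 3 genes of the lists in order. Those 3 were Pirb, higher in KO (4.22 to 4.39, WT 2.87 to 3.43), and Klrd1 (-2.42) and Klrk1 (-0.52), both lower. Klrk1 was well above background on only 4 of 15 arrays. Its mean at 4 months was -4.42 in WT and at the floor (-4.94) in KO, so its difference rests on the floor. Pirb thus ran opposite to its fall at 16 months. The KO effect differed between the ages for Pirb (-2.83, limma adjusted p = 0.0134) and Pilra (-4.56, 0.0217). No other gene of the last list passed that test. When the 16-month arrays were fitted alone, which leaves fewer samples for the spread, the lower calls in the 4 lists dropped to 1, 0, 2 and 0 in the order given. Those of the microglial markers dropped from 10 to 2 in the same fit, for which the share of all features is not given here.

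**Figure D4:**
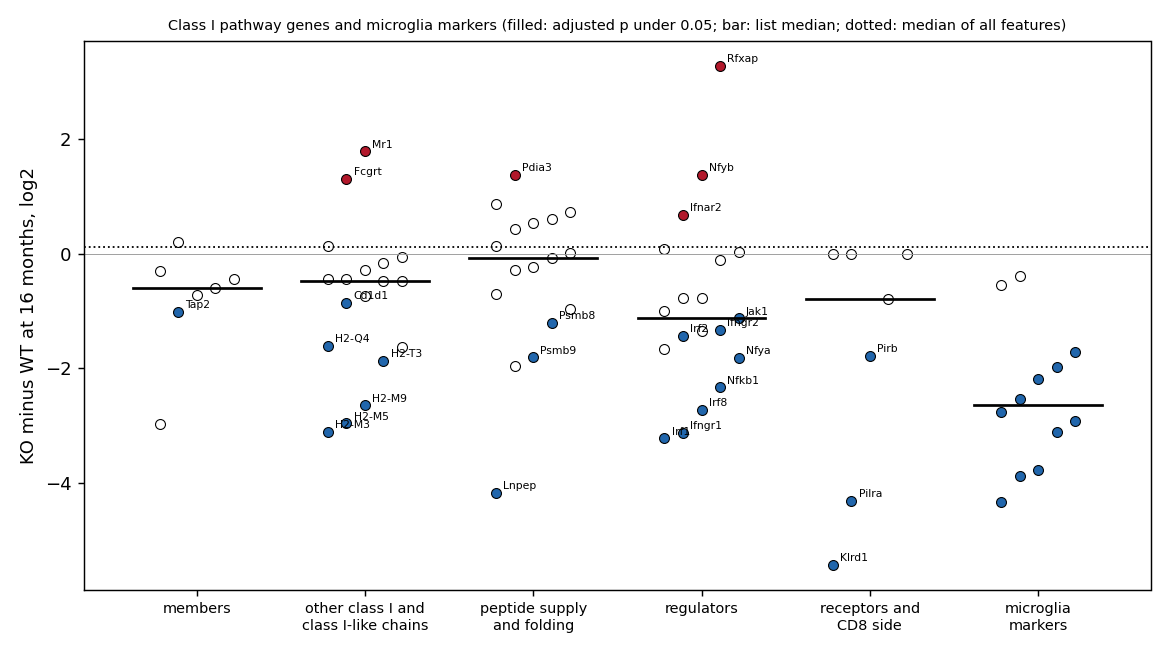
KO minus WT difference at 16 months on the log2 scale of the 7 class I genes, the 4 lists of related genes and 12 microglial markers; points are genes, filled blue (lower) or red (higher) where the adjusted p passed, bars are list medians and the dotted line is the median of all features (0.12). The microglial markers have the lowest median (-2.65) and the class I genes lie between -2.97 and 0.19.

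The 7 class I genes thus had a median difference of -0.59 at 16 months beside -2.65 for the 12 microglial markers in the same arrays. Among those markers Cx3cr1 had the lowest value (-4.32, limma adjusted p = 0.00282), and Ptprc did not pass (-0.54, adjusted p = 0.638). No test was made of the difference between the 2 groups of genes. The median difference over all features at 16 months depended on the processing: it was 0.12 as reported, 0.44 with normexp background correction and 0 with the 75th percentile taken over probes detected on all arrays. Relative to that median, Tap2 lay between -1.51 and -0.80 and the brighter Nlrc5 probe between -3.72 and -1.96 over the 16 alternatives, all on one side. The brighter H2-K1 probe (-1.28 to -0.22) and Tapbp (-0.88 to -0.01) also stayed below that median. H2-D1 (-2.09 to 0.37) and Tap1 (-1.54 to 0.38) did not. The second Nlrc5 probe was not part of these alternatives and went the other way, 0.66 above the median of all probes. B2m lay between -0.52 and 0.44 and has no settled direction.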

How the data were processed

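Single-color (Cy3) Agilent arrays of sorted microglia were used, with the processed signal, background-subtracted signal and median spot and background signals as intensity per the file headers (Feature Extraction 10.7.3.1). The submitters' processing notes name Agilent Feature Extraction and R 2.15.3, and no genome build is given in the sources used here. Per the file headers, the authors' software scaled the 4-month arrays by a detrending surface and did not scale the 16-month arrays. Each age was on its own slide with the genotypes at different places, and place and genotype cannot be told apart. The number of arrays limits the precision.

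Signals were scaled by the 75th percentile of their array, with a floor of 0.0325, before log2 was taken, and repeat spots were averaged with outliers removed. At least 3 arrays had to show a probe well above background, which 45606 of 55681 did, and the brightest probe of each gene was kept, which left 31920 features. One limma 3.58.1 fit in R 4.3.3 over 13 replicates gave every contrast (two-sided, Benjamini-Hochberg adjustment over all features, threshold 0.05), and it was tested on simulated data. Named genes are the 7 genes in every comparison and, of each list, at most 4 each way with the largest differences among those that passed. The members, lists and markers were chosen with earlier results of these data known. Promoters and gene positions came from RefSeq tables of GRCm38.p6 (5 of the 7 genes had a promoter entry) and were aligned with Biopython. Deviations from the group means of same-numbered WT and KO arrays correlated at -0.0428 to -0.0349 at 4 months (3 pairs), and at 0.114 to 0.124 at 16 months (4 pairs, against -0.148 to 0.134 for different numbers, the matching WT arrays counted separately). The fit was made without a replicate block, and values with it are given where they change a call. The deposited bead array intensities of brain tissue were not used here, because their probe identifiers are not paired with genes in the files used.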

Additional observations from a re-analysis of the deposited data

Results flagged for a closer look

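The largest gaps within a group of 4 samples were examined for each of the 7 genes in WT of 4 months and KO of 16 months, and chance alone sets about 1 in 20 such groups apart. In WT of 4 months 1 sample of B2m stood above the others (7.85, nearest 7.41) and 1 of Tapbp stood below (3.19, nearest 3.37). In KO of 16 months 1 sample of H2-K1 stood below the others (6.34, nearest 6.65), as did 1 of Tapbp (2.09, nearest 2.42). Those 4 of 14 groups involve 4 different samples. The lone Nlrc5 value in KO sample 2 (-4.53) did not stand apart by this measure because the other 3 were themselves spread.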

How the results depend on the processing

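At 4 months the count of class I genes called was 0 in all 17 alternatives. At 16 months the count was 1 as reported, 3 with quantile normalization or with the 75th percentile over probes detected on all arrays, 2 with normexp, with only probes detected on all arrays or with 15 separate arrays, and 0 with the replicate block or with 16-month arrays alone. The share of all features called is given above only for the fit as reported, so the other counts have no background beside them. The test between ages gave 1 with normexp. WT at 16 against 4 months gave 1 with normexp, with 15 separate arrays or with 1 array kept of each matching pair. This last, and all alternatives for the gene lists, were chosen after seeing the data. Counts leaving out 1 replicate are not listed, because some of those fits keep 1 WT replicate at 16 months.

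The replicate block ended the Tap2 call at 16 months (adjusted p = 0.0802), changed no other call among the 7 genes and left the WT age comparison without a fit. Normexp turned Tap1 at 16 months (0.28) and B2m with age (-0.058). B2m at 16 months was -0.40 with quantile normalization and -0.11 with the percentile over detected probes, whose share of higher calls over all features (count of calls) was 44.3% in place of 56.3%. The cause was not tested.

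Leaving out 1 replicate, the 16-month differences ran from -0.29 to 0.68 for B2m, -2.03 to 0.60 for H2-D1, -1.20 to 0.018 for H2-K1, -1.49 to 0.61 for Tap1 and -0.83 to 0.22 for Tapbp, each set at both ends by the WT replicates. H2-K1 at 4 months ran from -0.021 to 0.26. Between ages, B2m ran from -0.55 to 0.41 (0.12 without KO sample 2 of 4 months), H2-D1 from -2.37 to 0.27 and Tap1 from -0.39 to 1.72. With age in WT, B2m ran from -0.43 to 0.53, H2-D1 from -0.57 to 2.07, H2-K1 from -0.29 to 0.93, Tap1 from -2.0 to 0.10 and Nlrc5 from -0.26 to 1.09. Normexp used median spot signals, and the planned comparisons of brain regions were not run. Tap1 and the second Nlrc5 probe lie near background, where small signals set the log2 value.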
